A study of Mus musculus with 4 samples.

Results

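The cells described here came from left ventricular cells sorted for RFP and were chosen by a rule on fibroblast genes. They numbered 302 of the 39829 sorted cells that passed the filters. Their working label was fibroblast-like. For 192 of them, which held 2 or more UMIs of the endothelial genes described below, the label is not taken as shown. A cell was taken when it held at least 4 unique molecular identifiers (UMIs, each a counted transcript) of Dcn, Lum, Pdgfra, Col1a1 and Col1a2 together, with at least 2 of them from Dcn, Lum or Pdgfra. It also had at most 2 UMIs of the pericyte genes Kcnj8, Abcc9, Vtn and Pdgfrb and at most 3 of the smooth muscle genes Acta2, Tagln and Myh11. The members were thus chosen by the measured values of these 12 genes, which are given as a description only. NC library 1 held 55 of these cells among 7114, NC library 2 held 64 of 6687, HFpEF library 1 held 35 of 5440 and HFpEF library 2 held 148 of 20588. Values of the 4 libraries are listed below in this order.

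Cardiac fibroblasts make and remodel the collagen and proteoglycan matrix between cardiomyocytes, and they are known as the main matrix-producing cells of the fibrotic heart. Decorin (Dcn) and lumican (Lum) are small proteoglycans that bind collagen fibrils, and Pdgfra is a growth factor receptor that marks cardiac fibroblasts. Endothelial-to-mesenchymal transition is the name for the acquisition of such genes by endothelial cells. The sort was made for an endothelial lineage label, RFP. The libraries allow the question of which sorted cells held fibroblast transcripts, and whether those cells also held endothelial ones. The paper's flow cytometry detected no cell with RFP but without CD31, the protein of Pecam1, in either HFpEF group. For their own clusters the authors left out possible contaminating cells by endothelial markers such as Pecam1 and Cdh5. Whether each member carried the label, and where it came from, was not tested.

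The mice were Cdh5-CreER; R26-stop-tdTomato animals with floxed Scarb1 alleles (Sfl/fl/RΔEC or Sfl/+/RΔEC) given tamoxifen, and cells of the left ventricle were sorted for RFP. NC mice had a control diet with 10% of energy from fat, and HFpEF mice had a diet with 60% of energy from fat together with 0.5 mg/ml L-NAME, an inhibitor of nitric oxide synthase, for 20 weeks. Both diets were given to both genotypes, which makes 4 groups for the 4 libraries, so the 2 libraries of a diet differ in genotype if each group gave 1 library. The library labels give the diet only and do not tell which library has which genotype, and the number of mice behind a library is not stated in the sources used here. The Cre is driven by the Cdh5 promoter, which acts in endothelial cells, and no feature for tdTomato or Cre is among the 31253 counted genes, so the label could not be read from the counts of a cell. Members held 372058, 387970, 114039 and 529936 UMIs, with medians of 6549, 6094, 2806 and 2827 UMIs per cell. The other sorted cells had medians of 3736, 4113, 1734 and 1612, so both kinds of cell were counted less deeply in the HFpEF libraries.

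The label was checked against Pecam1 (PECAM-1, a junctional adhesion molecule, ENSMUSG00000020717, GRCm38 chromosome 11, 106654217 to 106750628) and Cdh5 (VE-cadherin, ENSMUSG00000031871, chromosome 8, 104101625 to 104144511), which define endothelial cells. Of the 302 members, 88 (29.1%) had no UMI of either gene, 22 had 1 UMI, and 192 (63.6%) had 2 or more. Members without a UMI of these genes were thus a minority. The 2 groups are described apart below, as endothelial-negative cells (no UMI) and endothelial-positive cells (2 or more UMIs). Endothelial-negative cells numbered 5, 18, 14 and 51 in the 4 libraries, and endothelial-positive cells 48, 44, 18 and 82. Members without a UMI made up 9.09% (95% exact Clopper-Pearson interval 3.02 to 19.95), 28.1% (17.6 to 40.8), 40.0% (23.9 to 57.9) and 34.5% (26.8 to 42.7) of the members of a library, intervals that cover counting error only. The same share was 4.31%, 4.77%, 10.3% and 11.6% among the other cells. After every cell was thinned to 1000 UMIs, which left out 0, 3, 5 and 5 members, it was 29.1%, 39.3%, 46.7% and 47.6% of members and 16.9%, 16.6%, 19.4% and 17.8% of the other cells. In the stacked bars of members by endothelial UMIs, NC library 1 stands apart with only 5 endothelial-negative cells. With 2 libraries per diet an exact permutation test cannot give a p below 0.333, so these shares were not tested.

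**Figure D1:**
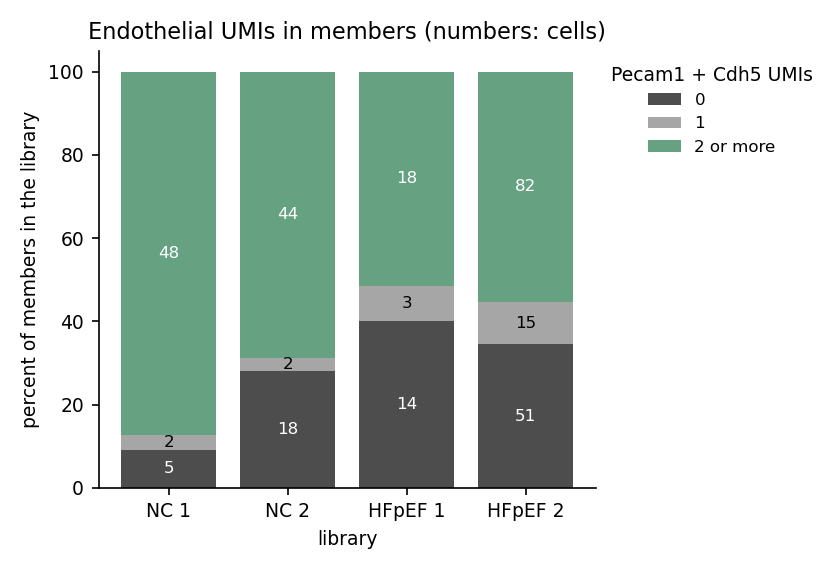
Percent of the members of each library (vertical axis) by the number of Pecam1 and Cdh5 UMIs in the cell, with the number of cells written in each bar. Cells with 2 or more such UMIs form the largest part in each of the 4 libraries, from 51.4% in HFpEF library 1 to 87.3% in NC library 1.

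Free RNA and attached cells can give endothelial UMIs to cells of another type, so pericyte-like cells of the same sort were counted as well. Of 83, 135, 109 and 183 pericyte-like cells, with medians of 5684, 6051, 2730 and 2682 UMIs, 57, 87, 63 and 108 also held 2 or more Pecam1 and Cdh5 UMIs. Cdh5 reached 751, 799.6, 670.4 and 802 CPM (UMIs per 1000000 UMIs of the summed cells of a library) in pericyte-like cells, 364, 543, 543 and 537 CPM in endothelial-positive members and 1192, 1325, 1165 and 1165 CPM in the other cells. Pecam1 reached 421, 475, 339.9 and 518 CPM, 1089.6, 1009, 702 and 992 CPM and 720.3, 737, 658 and 741 CPM in the same 3 groups. The endothelial-positive members were chosen by UMIs of these 2 genes and the pericyte-like cells were not, so no order is read between them. Doublets were not called in these counts.

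The 88 endothelial-negative cells carried the fibroblast genes of the rule together with others that the rule did not use. Dcn (ENSMUSG00000019929, chromosome 10, 97479609 to 97518143) was at 14086, 27036, 23305 and 17367 CPM in them and at 8.9, 24.8, 4.13 and 11.9 CPM in the other cells. Gsn (gelsolin, an actin-severing protein that cardiac fibroblasts also secrete, chromosome 2, 35256380 to 35307892) was found in 84 of the 88 cells, at 9501, 34758, 23152 and 28376 CPM against 17.2, 35.3, 15.1 and 22 CPM. C3, the central complement component, was found in 70 cells at 3361, 3251, 3854 and 5149 CPM against 0.815, 3.12, 1.88 and 3.59 CPM. All 3 genes were far higher in endothelial-negative cells than in the other cells in 4 of 4 libraries, and this contrast was not tested because the rule chose the cells by genes of the same contrast.

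Of the 22 fibroblast identity genes outside the rule, 19 had a mean of at least 100 CPM in endothelial-negative cells, and 18 of these 19 also had at least a log2 ratio of 2 (1 CPM added) over the other cells in 4 of 4 libraries. By the same 2 criteria 205 of the 1543 genes with 100 CPM or more were counted, or 13.3%, and for all members together 157 of 1600, or 9.81%. The 5 fibroblast genes of the rule are among the 205 and among the 157. Outside the genes of the rule, the largest log2 ratios after those of C3 and Gsn were those of Htra3, a secreted serine protease, with 9.48 ± 0.30 (mean ± SD, n = 4 libraries) and Dpt, dermatopontin, with 9.47 ± 0.24. The membrane dipeptidase Dpep1 (9.25 ± 0.51), the matrix protein Smoc2 (9.19 ± 0.63), fibulin 1 (Fbln1, 9.11 ± 1.36) and the plasma glutathione peroxidase Gpx3 (9.08 ± 0.35) followed. Tetranectin (Clec3b), the elastin cross-linking enzyme Loxl1 and osteoglycin (Ogn) had ratios of 8.88 ± 0.70, 8.84 ± 0.49 and 8.70 ± 1.58. Stromelysin 1 (Mmp3), the cortisone reductase Hsd11b1, the chemokine Cxcl14 and Ifi205 were also among the 15 largest outside the rule, with 8.22 ± 1.73, 8.02 ± 0.50, 7.91 ± 1.96 and 7.88 ± 0.65.

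Matrix genes were read in the endothelial-negative cells by class. Of 7 fibrillar collagen genes outside the rule, 4 reached 100 CPM and all 4 met both criteria. Col1a1 and Col1a2, the chains of type I collagen that are part of the rule and had to be high, stood at 622, 975, 1039.9 and 1396 CPM and 1088, 1951, 1682 and 1889 CPM. Col3a1, type III collagen, stood at 855, 1595, 1162 and 1353 CPM against 2.45, 6.92, 5.45 and 3.07 CPM in the other cells. The 4 libraries lay within 2-fold of each other for Col1a2 and Col3a1. Of 20 other collagen genes 8 reached 100 CPM and 6 of these met both criteria, among them Col6a1 (1127, 640.1, 459 and 817 CPM) and Col15a1 (408, 467, 612 and 823 CPM). The basement membrane chain Col4a1 did not, and the other cells held it too (1496, 762, 459 and 754 CPM against 1132, 967, 831 and 1191 CPM). Among the genes that reached 100 CPM, both criteria were met by 6 of 10 proteoglycan genes outside the rule (14 in the list), 5 of 13 elastic fibre genes (16 in the list) and 10 of 20 matricellular and glycoprotein genes (31 in the list). They were met by 6 of 8 collagen maturation enzymes (20 in the list), 7 of 9 metalloproteases and inhibitors (19 in the list) and 7 of 8 complement genes (14 in the list), including Serping1, the C1 inhibitor, at 1515, 2408, 2202 and 2768 CPM.

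Among the fibroblast states that the lists cover, endothelial-negative cells held some adventitial and some parenchymal genes. Both criteria were met by 5 of 9 adventitial genes at 100 CPM or more (14 in the list) and 7 of 10 parenchymal genes (11 in the list). The adventitial list, led by Ly6a, summed to 4644, 3851, 2753 and 6508 CPM against 7180, 5749, 4999 and 5987 CPM in the other cells. The parenchymal list summed to 2098, 5476, 5627 and 5847 CPM against 3457, 3070, 3147 and 3527 CPM. Pi16, a marker of adventitial fibroblasts, had a UMI in 43 of the 88 cells, and Tcf21, a transcription factor of resident cardiac fibroblasts, in 44. Both were found in 25 cells, Pi16 alone in 18, Tcf21 alone in 19 and neither in 26, so the 2 genes did not divide the cells into separate sets at this depth. Smoc2 was found in 74 cells, among them all 44 with Tcf21. Activated fibroblast and myofibroblast genes were low, with 3 of 18 at 100 CPM or more and 0 of these 3 meeting the second criterion. Periostin (Postn), made by activated fibroblasts, was found in 5 cells, at 0, 10.2, 122 and 31.2 CPM. Cilp and Thbs4, matrix proteins of stressed fibroblasts, were found in 8 and 3 cells, at 0, 61, 30.6 and 1103 CPM and 0, 0, 0 and 866 CPM. A single cell held 136 of the 184 Cilp UMIs, and 1 cell held 113 of the 139 Thbs4 UMIs. A single UMI in the endothelial-negative cells was worth 19.4 CPM in NC library 1 and 30.6 CPM in HFpEF library 1, so a gene at 0 there was not detectable at this depth rather than absent.

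Endothelial genes that did not define the endothelial-negative cells were low in most of them. Cldn5 (claudin 5 of endothelial tight junctions) had 0 of 343009 UMIs, which allows up to 8.75 CPM, whereas the other cells had 611, 822, 898 and 799.8 CPM and pericyte-like cells 339, 480.4, 324 and 457 CPM. Kdr (VEGF receptor 2) had 7 UMIs in 5 cells, and Flt1 and Egfl7 had 13 UMIs each in 9 and 6 cells. The 20 endothelial markers summed to 641, 1321, 795 and 1315 CPM in endothelial-negative cells, 16581, 16292, 15649 and 19344 CPM in endothelial-positive cells, 27117, 30787, 23788 and 30044 CPM in pericyte-like cells and 47072, 53012, 44452 and 46862 CPM in the other cells. Of these markers Fabp4 had the highest mean CPM in the members. Scarb1, the floxed gene of the study, had 0 UMIs in endothelial-negative cells (up to 8.75 CPM) and stood at 106, 43.8, 108 and 50.4 CPM in the other cells. The loxP sites flank exon 2 of Scarb1 while the assay counts 3′ ends, and no value of Scarb1 was used to assign a genotype.

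**Figure D2:**
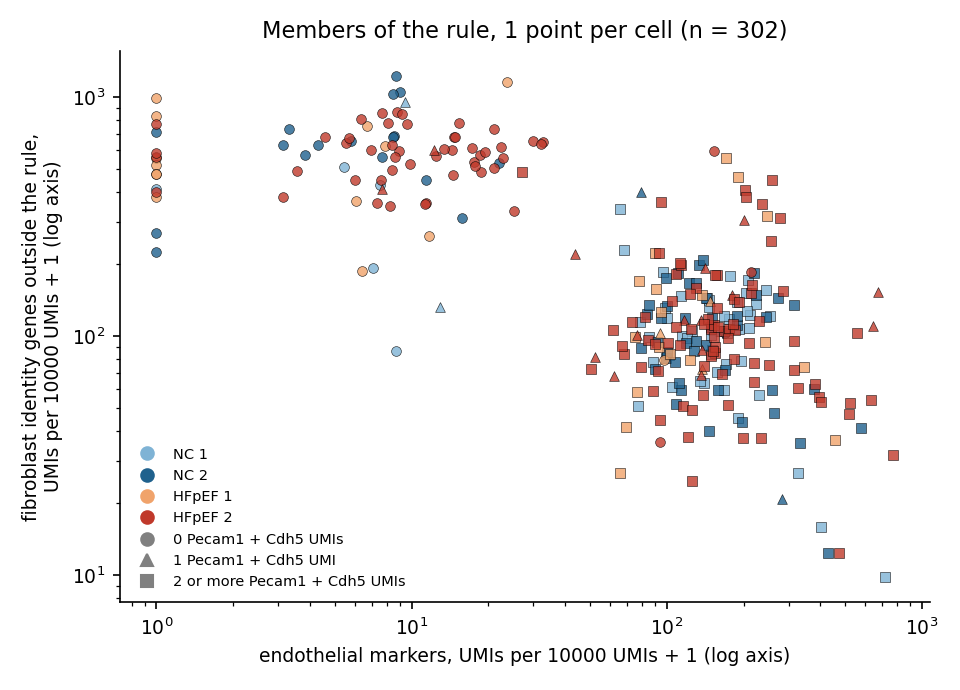
Each of the 302 members by its UMIs of 20 endothelial markers (horizontal, log axis) and of 22 fibroblast identity genes outside the rule (vertical, log axis), per 10000 UMIs of the cell with 1 added. Colours give the library and symbols the number of Pecam1 and Cdh5 UMIs. Endothelial-negative cells lie at the upper left (median 568.5 identity and 7.48 endothelial UMIs per 10000) and endothelial-positive cells at the lower right (medians 99.4 and 149), with a few cells high on both axes.

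The 192 endothelial-positive cells held UMIs of Dcn and Lum, by which the rule chose them, and few of most other fibroblast genes. Dcn was at 4109, 3272, 6434 and 3247 CPM and Lum at 671, 690.1, 861 and 528 CPM. Col1a1 had a UMI in only 16 of the 192 cells, Pdgfra in 26, Tcf21 in 3 and Gsn in 45. Col1a1 stood at 6.39, 0, 106 and 85.5 CPM, Gsn at 57.5, 116, 6302 and 1209 CPM and C3 at 0, 3.5, 556 and 119 CPM. No diet difference is read from these values here. Col1a1 is a gene of the rule, and 10 cells rich in Gsn, described below, all came from the HFpEF libraries. Postn was found in 34 of the 192 cells, at 294, 140.1, 1033 and 485 CPM. Of the 22 fibroblast identity genes outside the rule 4 reached 100 CPM in these cells and 2 of the 4 met both criteria, which 105 of the 1597 genes at 100 CPM or more did (6.57%, Dcn and Lum of the rule included). Of the 7 fibrillar collagens outside the rule 0 reached 100 CPM.

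Other genes led these cells. Npr3, the clearance receptor for natriuretic peptides and a marker of the endocardium (chromosome 15, 11839896 to 11907287), was found in 127 of the 192 cells at 1262, 1702, 437 and 757 CPM against 7.78, 6.89, 13.7 and 9.69 CPM in the other cells. It was found in 4 of the 88 endothelial-negative cells. Outside the genes of the rule, the largest log2 ratios over the other cells were those of Ahsg (fetuin-A, 8.26 ± 0.92), Nrg1 (neuregulin 1, a growth factor of the endocardium, 8.06 ± 0.94), the imprinted noncoding RNA H19 (7.92 ± 0.73) and cadherin 11 (Cdh11, 7.78 ± 0.55). The matrix protein Smoc1 (7.31 ± 0.90) and cyclooxygenase 2 (Ptgs2, 7.30 ± 0.85) came next. Hepcidin (Hamp), Tmem108, prostacyclin synthase (Ptgis), the ephrin receptor Epha7, Comp, Cyp1b1 and cathepsin H (Ctsh) had ratios among the 15 largest outside the rule. Hamp came from 16 cells, with 89 of its 369 UMIs in 1 of them.

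Of the 7 endocardial and lymphatic endothelial markers listed 6 were read, and Ccl21a was left out because its symbol stands for more than 1 entry. Of these 6 markers 4 met the criteria, namely Npr3, Cdh11, Plvap, the diaphragm protein of fenestrated endothelium, and Prox1, the transcription factor of lymphatic endothelium. Prox1 had a UMI in 50 of the 192 cells and Npr3 with it in 30 of these. Lyve1, another lymphatic marker, was found in 25 cells, and in 7 of the 50 with Prox1. Mmrn1 was found in 4 cells. The 20 endothelial markers split. Vwf, von Willebrand factor, was 2297, 2469, 437 and 1199 CPM in endothelial-positive members against 55.6, 60.8, 24.7 and 49.7 CPM in the other cells and 20.4, 43.5, 6.29 and 35.5 CPM in pericyte-like cells. Emcn and Eng, endomucin and endoglin, were also above the other cells in 4 of 4 libraries, with log2 ratios of 1.33 ± 0.47 and 1.38 ± 0.44. Capillary genes were lower, with -2.51 ± 0.64 for Fabp4, -2.29 ± 0.36 for the fatty acid transporter Cd36, -2.78 ± 0.86 for Ly6c1 and -2.21 ± 0.56 for Kdr. These cells are given no fibroblast name and are described by the rule and by their leading genes, such as Ahsg, Nrg1, H19 and Cdh11.

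**Figure D3:**
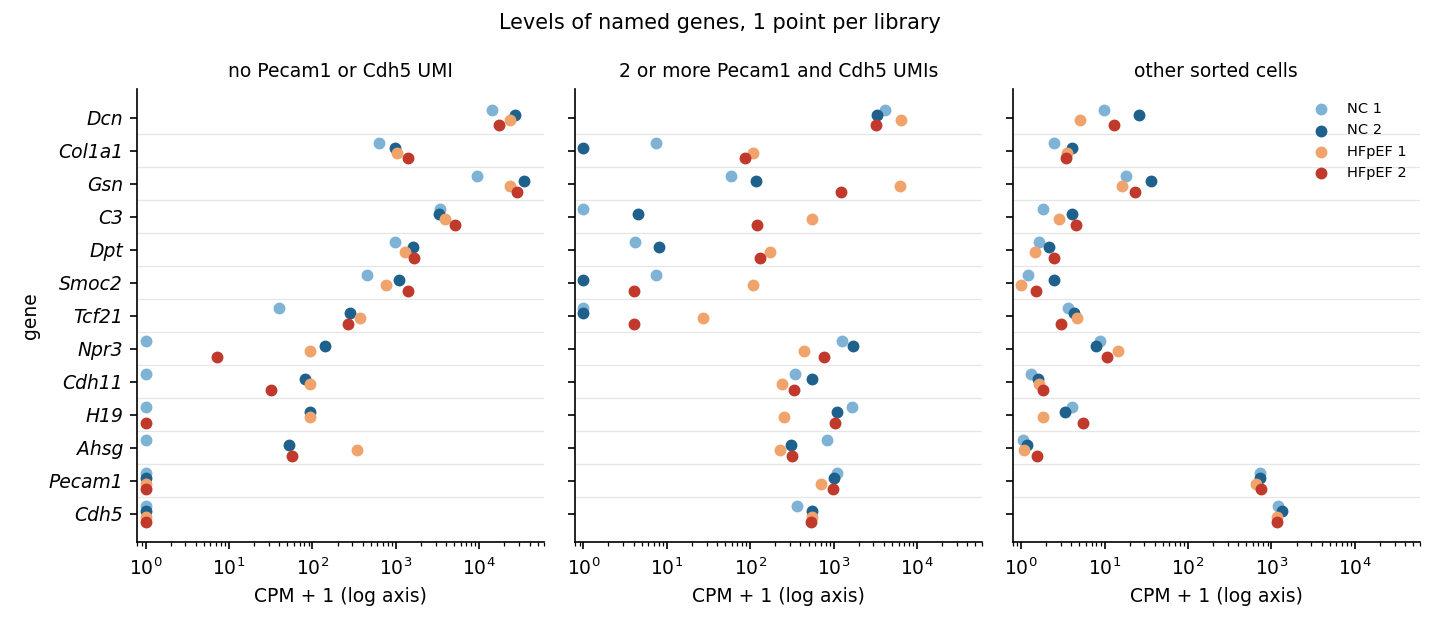
Levels of 13 genes in endothelial-negative members, endothelial-positive members and the other sorted cells, as CPM with 1 added (log axis), with 1 point per library. Gsn, C3, Dpt and Smoc2 lie highest in the first panel, Npr3, Cdh11 and H19 in the second, and Pecam1 and Cdh5 are 0 in the first panel by the choice of its cells.

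The division was not complete. Of the 88 endothelial-negative cells 5 held from 93.5 to 212 endothelial marker UMIs per 10000, 3 of them above the median of 149 of endothelial-positive cells, while the other endothelial-negative cells held at most 31.8. These 5 cells, 1 of NC library 2, 1 of HFpEF library 1 and 3 of HFpEF library 2, held 124 of the 400 endothelial marker UMIs of their group, and 3 of them had no Gsn UMI and 2 had Npr3. Of the 192 endothelial-positive cells 10 had at least 50 Gsn UMIs per 10000, a level that 81 of the 88 endothelial-negative cells reached. These 10 cells came from HFpEF library 1 (3 cells) and HFpEF library 2 (7 cells), had a median of 2927.5 UMIs and held no Npr3 UMI. The medians of all endothelial-positive cells were 3888.5 UMIs in HFpEF library 1 and 3166.5 in HFpEF library 2. The 39 genes that met the criteria in both groups made up 19.02% of the 205 and 37.1% of the 105. The 22 members with 1 endothelial UMI had a median of 1731.5 UMIs per cell, and 11 of them held Gsn and 10 held Npr3.

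Markers of other cell types were summed in both groups of members. Pericyte markers summed to 136, 132, 214 and 99.7 CPM in endothelial-negative and 313, 52.5, 92.7 and 107 CPM in endothelial-positive cells, against 15309, 14674, 13203 and 13536 CPM in pericyte-like cells. Rgs5 had the highest mean CPM of them in the members, with 86 of its 132 UMIs in 1 cell, and Higd1b was at 0. Macrophage markers summed to 38.9, 40.6, 0 and 24.9 CPM in endothelial-negative cells, 153, 1727, 1033 and 528 CPM in endothelial-positive cells and 91, 267, 212 and 198 CPM in the other cells. They were higher in endothelial-positive cells than in the other cells in 4 of 4 libraries, and their part in the results for these cells was not tested. Cd74 had the highest mean CPM of them in the members, and 201 UMIs of Lyz2 (lysozyme) lay in 1 cell of NC library 2. The 8 smooth muscle markers summed to at most 106.0 CPM in either group of any library, and the 12 cardiomyocyte markers to at most 185.4 CPM. Ptprc, the leukocyte antigen CD45, was found in 1 of the 302 cells, 7 of 8 mesothelial markers, 8 of 10 lymphocyte markers and all 6 adipocyte markers were at 0 in all members, and 3 of 7 Schwann cell markers were too.

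Just inside the rule, 17 members had exactly 4 UMIs of the 5 markers and 14 had 5, of which 12 and 12 were endothelial-positive. Just outside it, 19 cells had 3 such UMIs and 67 had 2, with at least 2 from Dcn, Lum or Pdgfra, and 18 and 62 of them held 2 or more endothelial UMIs. Cells near the threshold of the marker sum were therefore mostly endothelial-positive. A further 12 cells met the marker criteria and failed the pericyte or smooth muscle limit, and 6 of them held 2 or more endothelial UMIs. Another 4 cells had 4 or more UMIs of the 5 markers with under 2 from Dcn, Lum or Pdgfra, and 1 of these did. Endothelial-negative members had a median of 59.5 marker UMIs and endothelial-positive members of 14.

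The share of members among sorted cells was 0.773% (95% exact Clopper-Pearson interval 0.583 to 1.01), 0.957% (0.738 to 1.22), 0.643% (0.449 to 0.894) and 0.719% (0.608 to 0.844). Endothelial-negative cells alone made up 0.0703%, 0.269%, 0.257% and 0.248%, and endothelial-positive cells 0.675%, 0.658%, 0.331% and 0.398%. The endothelial-positive share was lower in both HFpEF libraries than in both NC libraries, while the endothelial-negative share overlapped. Depth per cell moved with the diet, and with the rule applied to cells thinned to 1000 UMIs the share of members was 0.464%, 0.584%, 0.514% and 0.660%, with the diets overlapping. The part of depth in the endothelial-positive shares was not tested.

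HFpEF was then compared with NC over the UMIs summed per library, because cells of a library are not replicates. With edgeR's quasi-likelihood test and Benjamini-Hochberg adjustment, 10 of 5618 tested genes (0.178%) differed at an adjusted p under 0.05, 7 higher (0.125%) and 3 lower (0.0534%) in HFpEF members. The genes that rose were Tnfaip6, Il6, Cxcl14, C4b, Mmp3 and Vcan. The other gene on the higher side, Cxcl2, passed the low-count filter only through the HFpEF libraries, and 6 remain without it. The genes that fell, Fabp5, Tm4sf1 and Mal, were carried mainly by endothelial-positive cells. At an unadjusted p under 0.05 there were 486 genes (8.65%). The 10 calls depended on the libraries and the rule, with 61 to 188 calls when 1 library was left out (188 without NC library 2, 157 without NC library 1, 99 without HFpEF library 1 and 61 without HFpEF library 2), 2 with the rule applied to thinned cells, neither of them among the 10, and 0 with stricter thresholds. Without the pericyte and smooth muscle limits, which added 12 cells, 15 genes passed, and 7 of the 10 were among them. The error behind these p-values is the difference between libraries within NC and within HFpEF, in which genotype, animals and technical variation cannot be told apart. The libraries of a diet also differed in the share of endothelial-negative cells (9.09% and 28.1% in NC, 40.0% and 34.5% in HFpEF). That share was above both NC values in both HFpEF libraries, and in sums of cells a change in the share of a cell group and a change in RNA per cell cannot be told apart.

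Among the genes that rose, Tnfaip6 (TSG-6, a hyaluronan-binding protein induced by inflammatory signals, chromosome 2, 52038009 to 52056686) stood at 37.3, 39.5, 217 and 290.4 CPM, per 1000000 UMIs of the tested genes and scaled by edgeR's TMM factors, which adjust for library composition. All levels of the diet comparison given in CPM below are on this scale unless another is named. Both HFpEF libraries were above both NC libraries, with a log2 fold change of 2.76 ± 0.32 (SE, adjusted p = 0.0175). Its UMIs came from 38 endothelial-negative and 10 endothelial-positive cells. Il6 (interleukin 6, chromosome 5, 30013114 to 30019981) stood at 28.7, 2.82, 331 and 284 CPM, and its log2 fold change was 4.24 ± 0.53 (adjusted p = 0.0175). It was found in 3, 1, 6 and 31 cells, and the log2 fold change was 6.54 without NC library 1, 3.39 without NC library 2 and 2.29 without the pericyte and smooth muscle limits (adjusted p = 0.0456). Cxcl14 (chromosome 13, 56288643 to 56296551), a chemokine of resident fibroblasts, stood at 11.5, 53.6, 349.7 and 525 CPM, with 3.77 ± 0.50 (adjusted p = 0.0175), and 33 of the 37 cells that held it were endothelial-negative. Without the pericyte and smooth muscle limits Cxcl14 did not pass (2.43, adjusted p = 0.219). The NC values of Il6 and Cxcl14 rested on 11 and 23 UMIs.

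Cxcl2, a neutrophil-attracting chemokine (chromosome 5, 90903871 to 90905938), had 0, 0, 35 and 68 UMIs. Both NC libraries were at 0, and the summed HFpEF libraries were, without TMM scaling, at least 40.5-fold higher than the 3 counts that the NC libraries together allow (3.95 CPM of all UMIs). Cxcl2 entered the test only through the HFpEF libraries, so its p is not given. The HFpEF UMIs came from 16 cells, with 31 of 103 in 1 of them. The other cells held Cxcl2 in every library (without TMM scaling, 80.6, 103, 113 and 209 CPM). C4b, complement component 4 (chromosome 17, 34728380 to 34743882), stood at 37.3, 62.1, 227 and 397 CPM with a log2 fold change of 2.71 ± 0.38 (adjusted p = 0.0219), and Mmp3, a matrix metalloprotease (chromosome 9, 7445822 to 7455975), at 34.4, 48, 359 and 196 CPM with 2.64 ± 0.39 (adjusted p = 0.031). Mmp3 was found in 27 endothelial-negative cells and 1 endothelial-positive cell. Its call was lost without the pericyte and smooth muscle limits (1.27, adjusted p = 0.584) and without cells above the 95th percentile of UMIs (3.21, adjusted p = 0.0538). Versican (Vcan, chromosome 13, 89655312 to 89742509), a large proteoglycan of provisional matrix, stood at 40.2, 36.7, 161 and 154 CPM with 2.01 ± 0.32 (adjusted p = 0.0436). Vcan also did not pass without those limits (1.62, adjusted p = 0.0863), and DESeq2 gave no adjusted p for it. In all of these genes the HFpEF libraries lay above the NC libraries without overlap.

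Among the genes that fell, Fabp5, a fatty acid-binding protein (chromosome 3, 10012548 to 10016607), stood at 2880, 3361, 775 and 1142 CPM with a log2 fold change of -1.68 ± 0.22 (adjusted p = 0.0175). Tm4sf1, a membrane protein of endothelial cells (chromosome 3, 57285611 to 57301988), stood at 6276, 5184, 2543 and 2238 CPM with -1.26 ± 0.17 (adjusted p = 0.0175), and Mal, a membrane raft protein (chromosome 2, 127633226 to 127656695), at 373, 336, 94.5 and 71.1 CPM with -2.18 ± 0.31 (adjusted p = 0.0219). Without HFpEF library 2 Mal did not pass (-1.90, adjusted p = 0.0534). Endothelial-positive cells held 2727 of the 2855 Fabp5 UMIs and 289 of the 295 Mal UMIs. In members with 0 or 1 endothelial UMI, Fabp5 and Tm4sf1 had log2 fold changes of 0.39 ± 0.82 and 1.24 ± 0.39, opposite in sign, with adjusted p = 0.997 and adjusted p = 0.841. In endothelial-positive cells alone, a choice made after seeing the data, Fabp5 had -1.57 ± 0.25 (adjusted p = 0.0115). Tm4sf1 had -1.17 ± 0.18 (adjusted p = 0.00837) and Mal -2.07 ± 0.30 (adjusted p = 0.00641) there.

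**Figure D4:**
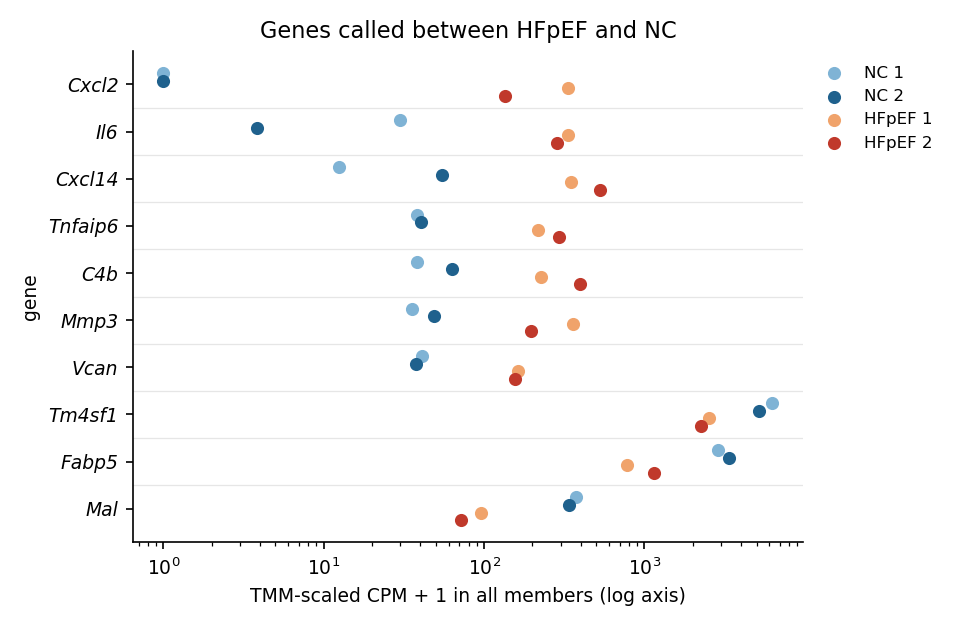
TMM-scaled CPM with 1 added (log axis) of the 10 genes that differed between HFpEF and NC over all members, with 1 point per library. Both HFpEF libraries lie to the right of both NC libraries for the upper 7 genes and to the left for the lower 3, and both NC libraries are at 0 for Cxcl2.

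The genes next in order did not pass the threshold. On the higher side they were Gfpt2, an enzyme of hexosamine synthesis (1.74 ± 0.31, adjusted p = 0.0755), pleiotrophin (Ptn, 2.37 ± 0.46, adjusted p = 0.105) and Ccdc152 (1.86 ± 0.36, adjusted p = 0.11), whose gene overlaps Selenop. On the lower side they were the collectin Colec11 (-2.03 ± 0.33, adjusted p = 0.0521), Nrg1 (-1.70 ± 0.28, adjusted p = 0.0608), Smoc1 (-1.62 ± 0.28, adjusted p = 0.0735), the kinase Rps6ka2 (-2.16 ± 0.38, adjusted p = 0.0735), Vwf (-1.64 ± 0.29, adjusted p = 0.0755), Npr3 (-1.30 ± 0.24, adjusted p = 0.0817) and the scavenger receptor Stab1 (-1.56 ± 0.29, adjusted p = 0.0919). Nrg1, Smoc1, Vwf and Npr3 are among the genes that set endothelial-positive cells apart.

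The test was repeated within the 2 groups of cells. In the 110 members with 0 or 1 endothelial UMI, which are 7, 20, 17 and 66 cells, 0 of 1365 genes passed (edgeR, with 72 genes at an unadjusted p under 0.05, or 5.27%). The genes that rose over all members had positive log2 fold changes there, 1.80 ± 0.42 for Tnfaip6, 3.25 ± 1.02 for Il6, 2.90 ± 0.56 for Cxcl14, 2.29 ± 0.57 for C4b, 1.94 ± 0.50 for Mmp3 and 0.44 ± 0.50 for Vcan, each with an adjusted p of 0.816 or more. These genes were chosen for their rise in sums that include the same cells, so their signs here are no separate check. Il6 stood at 231, 0, 1200.1 and 729 CPM and Cxcl14 at 92.3, 261, 982 and 1764 CPM in these cells. Gsn had -0.19 ± 0.34 there and Dpt 0.01 ± 0.36.

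In the 192 endothelial-positive cells 27 of 4792 genes (0.563%) passed, 18 higher and 9 lower in HFpEF. Of the 18, 11 passed the low-count filter only through the HFpEF libraries and are not read as a result, namely C3, Col1a1 of the rule, Crispld2, Cxcl2, Dpt, Fbln1, Gpx3, Htra3, Lrp1, Ogn and Vcan. The 7 that remain are Gsn (log2 fold change 5.36 ± 0.65, adjusted p = 0.00271), Sparcl1, the lipoprotein lipase Lpl, Myc, Slc39a1, Cldn5 and Mgll. Dpt (1, 2, 13 and 43 UMIs), Gpx3 (0, 2, 17 and 35 UMIs), Ogn (0, 1, 12 and 30 UMIs) and Fbln1 (1, 0, 15 and 26 UMIs) had at most 3 UMIs in the NC libraries together. Gsn stood at 63.9, 129, 6796 and 1291 CPM in these cells after TMM scaling. HFpEF library 1 was the highest, and both HFpEF libraries were above the NC libraries. All 10 endothelial-positive cells rich in Gsn came from the HFpEF libraries, and without them 7 of 4813 genes (0.145%) passed, 3 higher (0.0623%) and 4 lower (0.0831%). The cells left out were chosen by their Gsn UMIs, so Gsn is not compared without them. Dpt, Gpx3, Ogn and Fbln1 no longer passed the low-count filter. Cldn5 (log2 fold change 1.66, against 1.62 with these cells), Slc39a1 (1.74 against 1.72) and Sparcl1 (1.88 against 2.33) each had an adjusted p of 0.0646. Mgll (1.35 against 1.54, adjusted p = 0.0977) and Lpl (1.31 against 1.81, adjusted p = 0.171) did not pass either. The transcription factor Myc (log2 fold change 1.88, adjusted p = 0.0246) still rose. The other 2 on the higher side were Cxcl2 and Vcan (0, 2, 9 and 30 UMIs over all endothelial-positive cells), which also passed the filter through the HFpEF libraries. Mal, Fabp5, Tm4sf1 and Apoe still fell. The lipid carrier Apoe had -1.21 ± 0.24 (adjusted p = 0.0373) with all endothelial-positive cells. The other lower genes with all of these cells were Rps6ka2 (-2.02, adjusted p = 0.0373), Colec11 (-1.80, adjusted p = 0.0393), Smoc1 (-1.61, adjusted p = 0.0319), Nrg1 (-1.54, adjusted p = 0.0335) and Ptgs1 (-1.40, adjusted p = 0.0388). Without the cells rich in Gsn they had -1.87, -1.66, -1.45, -1.38 and -1.23, each with an adjusted p of 0.0735 or more.

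By list, the members were read against all tested genes, of which 19.8% had both HFpEF libraries above both NC libraries, 21.3% had both below, and the median log2 fold change was -0.01. Of the 22 fibroblast identity genes outside the rule, 20 were tested, 0 passed, 10 had both HFpEF libraries above both NC libraries and 0 below, and the median log2 fold change was 0.72. Gsn stood at 2808, 9815, 11654 and 10701 CPM, so NC library 1 was low and NC library 2 close to the HFpEF libraries (0.82, adjusted p = 0.63). In members with 0 or 1 endothelial UMI the median of 19 tested identity genes was -0.02. In endothelial-positive cells 14 were tested, some of which passed the low-count filter only through the HFpEF libraries, so no median is given there. The adventitial list had 12 tested genes with a median of 1.04 and 0 passed, with Pi16 at 83.2, 178, 255 and 443 CPM (1.48, adjusted p = 0.244). The parenchymal list had 11 tested genes with a median of 1.03, and 1, Cxcl14, passed. In members with 0 or 1 endothelial UMI the 2 lists had medians of 0.18 and 0.26.

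Matrix lists held 1 called gene each at most. Of 12 tested proteoglycan genes Vcan rose and the median was 0.43. Of 14 metalloproteases and inhibitors Mmp3 rose, 7 had both HFpEF libraries above both NC libraries, and the median was 0.53. Fibrillar collagens outside the rule had 4 tested genes, 0 passed, and a median of 0.16 over all members and -0.58 over 4 tested genes in members with 0 or 1 endothelial UMI. In endothelial-positive cells 2 were tested, too few for a median. Col3a1 stood at 138, 460, 416 and 502 CPM (0.63, adjusted p = 0.741), and its diets overlapped. None of 13 other collagens, 14 elastic fibre genes, 23 matricellular genes, 15 collagen maturation enzymes or 19 TGF-beta pathway genes passed, with medians of 0.07, -0.16, 0.25, 0.31 and 0.02. Connective tissue growth factor (Ccn2) stood at 433, 649, 388 and 156 CPM (-1.13, adjusted p = 0.458). Of 6 tested activated fibroblast genes 0 passed, and Postn stood at 264, 116, 775 and 329.9 CPM (1.47, adjusted p = 0.374).

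Of the tested chemokines and cytokines, Cxcl2 left aside, 2 rose (Il6 and Cxcl14) and 0 fell. The median over the 14 tested, Cxcl2 included, was 1.03, also with Cxcl2 at its bound. In members with 0 or 1 endothelial UMI the median of 10 tested genes of this list was 2.05, and 0 passed. Of these genes 1 had no UMI in 1 diet, and the median was 2.05 also with it at its bound. Genes that passed the low-count filter through 1 diet only were not set apart in these cells, for this list or the others. The chemokines Cxcl1 (597, 525, 1512 and 1049 CPM, 1.18, adjusted p = 0.128) and Ccl7 (129, 0, 992 and 482 CPM, 3.47, adjusted p = 0.211) had diets that did not overlap and did not pass, and Ccl2 overlapped (439, 121, 1834 and 393 CPM). Of 8 tested complement genes C4b rose, 6 had both HFpEF libraries above both NC libraries and 0 below, and the median was 0.95, with C3 at 502, 909, 1588 and 1881 CPM (1.30, adjusted p = 0.132). All 12 heat shock genes had a positive log2 fold change and 10 had no overlap, yet 0 passed. Their median was 0.61 in the members and 0.77 in the other cells of the same libraries. None of 25 interferon-induced genes, 18 immediate early genes, 16 transcription factors, 17 growth factors, 21 receptors or 3 Wif1 and matrifibrocyte genes passed, with medians of 0.20, 0.02, 0.42, 0.38, -0.24 and 0.98. Of 18 tested lipid and PPAR genes Fabp5 fell, and the median was 0.46. Of 20 endothelial markers 0 passed, 5 had both HFpEF libraries above and 9 below both NC libraries, and the median was -0.16.

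**Figure D5:**
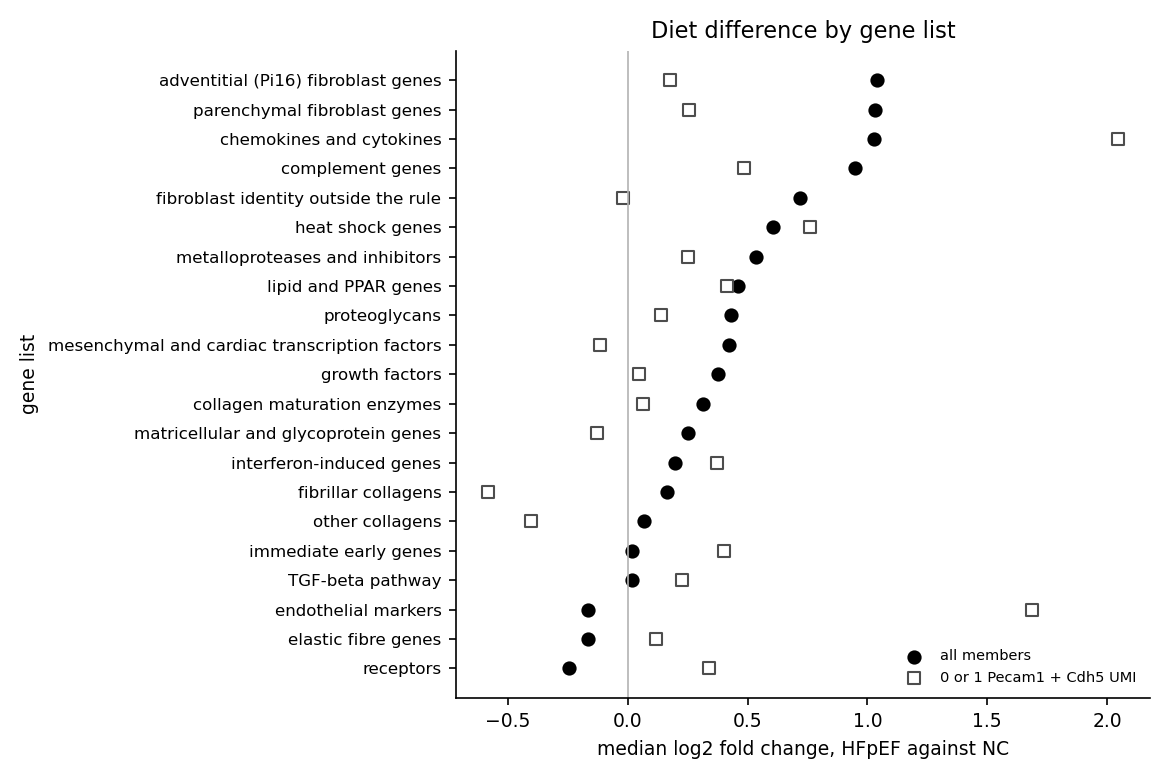
Median log2 fold change, HFpEF against NC, over the tested genes of each list with at least 4 tested genes, for all members (filled circles) and for members with 0 or 1 endothelial UMI (open squares). The tested genes of a list differ between the 2 sets of cells. For fibroblast identity genes outside the rule the medians are 0.72 and -0.02.

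The diet difference in the members was also compared with that in the 39527 other cells, with each library as a block and the interaction of cell group and diet as the tested term. The edgeR test found that it differed for 111 of 12516 genes (0.887%), 70 more positive and 41 more negative in the members, and with DESeq2 for 18. The 70 include Dcn, Col1a1 and Col1a2, whose values chose the members, and without them there were 67 (108 genes in all). Genes that passed the low-count filter through 1 diet or cell group only were not set apart in this fit. The counts thus still include Cxcl2, which was at 0 in the NC members. They also include Clec11a (12.7), Spsb2 (11.5), C1qa (-11.8) and C1qc (-11.4), whose very large fitted values are not read as a result. At an unadjusted p under 0.05 it differed for 6.13% of the genes. In the other cells alone 1 of 13616 genes (0.00734%) differed between the diets. Among the genes outside the rule with the smallest p, Gsn was 0.82 in the members and -0.45 in the other cells, each in a separate fit. In the joint fit over 12516 genes its interaction was 1.44 ± 0.20 (adjusted p = 2.26e-10), which is therefore not the exact difference of these 2 values. Prg4, lubricin, stood at 11.5, 56.4, 123 and 328 CPM in the members (interaction 2.83 ± 0.36, adjusted p = 1.07e-11) and Ccl7 had an interaction of 2.85 ± 0.38 (adjusted p = 2.26e-10). The Ccl7 interaction was -0.28 with the rule on thinned cells, 0.32 without the pericyte and smooth muscle limits and 0.60 without NC library 2, and it passed in none of these 3 fits nor with DESeq2. That of Prg4 did not pass with DESeq2 (adjusted p = 0.0793) or without HFpEF library 2 (1.30, adjusted p = 0.733). Prg4 was found in 22 members, with 60 of its 203 UMIs in 1 of them. On the negative side were Fabp5 (-1.60 ± 0.20, adjusted p = 1.21e-11), Npr3 (-1.91 ± 0.24, adjusted p = 1.39e-11) and Tm4sf1 (-1.37 ± 0.19, adjusted p = 2.07e-09). Without endothelial-positive cells these 3 turned to 0.79, 1.04 and 1.24, and with the rule on thinned cells Gsn (0.73, adjusted p = 0.525) and Npr3 (-0.96, adjusted p = 0.401) did not pass. Gsn, Fabp5, Npr3 and Tm4sf1 also differed in level between endothelial-negative and endothelial-positive members, whose shares moved with the diet, and the part of these shares in the interaction was not tested. Other genes of small p rested on 1 cell each. Lyz2 (1, 201, 6 and 1 UMIs) had 201 of its 209 UMIs in 1 cell of NC library 2, a Ccl21a entry (0, 0, 98 and 6 UMIs), 1 of several near-identical gene copies, had 98 of 104 in 1 cell of HFpEF library 1, and Ifit3b (1, 44, 1 and 1 UMIs) had 32 of 47 in 1 cell.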

How the data were processed

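The deposited values are UMI counts per gene and cell of 4 libraries (10x Genomics 3′ assay), which the authors made with fastp and Cell Ranger 5.0.1 on mm10 with Ensembl genes. They are not divided by library size. The paper describes downsampling between samples on the way to an aggregated matrix. Whether it was applied to these values was not tested, and their medians were 3644, 4035.5, 1699 and 1577 UMIs per cell. Libraries held 30387717, 31517933, 11163876 and 48003732 UMIs in 7465, 6924, 5769 and 21685 cells. Cells with over 200 genes and under 20% mitochondrial UMIs were kept, as the authors did, and 325 cells with 1% or more hemoglobin UMIs were left out. Doublets were not called. Pairs of libraries shared 10 to 42 barcodes, and no 2 members did. Pericyte-like cells had 4 or more UMIs of the 4 pericyte genes, at most 3 of the smooth muscle genes and were not members.

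The members, the 34 gene lists and the tests were chosen with earlier results of these data known. Counts were summed per library and tested with edgeR 4.0.16 in R 4.3.3 (glmQLFit, TMM, filterByExpr, Benjamini-Hochberg), with DESeq2 1.42.0 as an alternative, after edgeR's diet and interaction fits had been checked on simulated data. There the diet fit recovered 7%, 78% and 80% of 200 genes changed by a log2 of 1, 2 and 3. The interaction fit recovered 31% and 49.5% of 200 genes changed by a log2 of 2 and 3. A list without a passing gene is therefore not read as unchanged. CPM are UMIs per 1000000 UMIs of the summed cells, and in the diet comparison per 1000000 UMIs of the tested genes, scaled by TMM. The 3′ counts are not divided by gene length, and levels were compared within a gene, except to name the gene of highest mean CPM in a marker list. Named genes were the most abundant and the called members of each list, the 10 tested genes of smallest p in each direction with a mean of 50 CPM or more and no overlap between diets, the 5 of smallest p in each direction of the interaction, and the 15 of largest log2 ratio over the other cells outside the genes of the rule. The genes named for the 2 endothelial groups, and the few named outside these rules, were chosen after their values were seen. Some genes that these rules name are not reported here. Positions are those of GENCODE for GRCm38, in which 31107 of 31253 identifiers (99.5%) were found. Libraries, not cells, were the replicates. Alternatives left out each library and changed the tool, the scaling, the filters, the rule and the cells kept.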

Additional observations from a re-analysis of the deposited data

Results flagged for a closer look

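The diet difference of the members differed from that of the other cells for 111 genes by a test of the interaction in edgeR, 3 of which (Dcn, Col1a1 and Col1a2) are genes of the rule. Genes that passed the low-count filter through 1 diet or cell group only were not set apart in this count. Among the genes of smallest p, the interaction was 1.44 (log2) for Gsn, 2.83 for Prg4 and 2.85 for Ccl7 (-0.28 with the rule on thinned cells), and it was -1.60 for Fabp5, -1.91 for Npr3 and -1.37 for Tm4sf1. Cxcl2 had a fitted value of 13.37 and the Ccl21a entry one of 13.99, both of which depend on the prior count because the members of both NC libraries were at 0. Lyz2 had -4.03 and Ifit3b -4.51, and most UMIs of Lyz2, Ifit3b and the Ccl21a entry in the members came from 1 cell each.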

How the results depend on the processing

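The count of genes that differed between HFpEF and NC in the members, 10 with edgeR, was 21 with DESeq2, 135 with no filter on low counts and 17 without cells above the 95th percentile of UMIs. It was 0 of 5316 with stricter thresholds (at least 8 marker UMIs; 496 genes at an unadjusted p under 0.05, edgeR), 2 with the rule applied to cells thinned to 1000 UMIs, 0 of 1365 without endothelial-positive cells and 27 with only these, a choice made after seeing the data. Leaving out 1 library gave 61 to 188 calls, in fits where the lone library of a diet is assumed to vary like the others. With the replicate block (libraries with the same number taken as pairs) there were 10 calls, 8 higher and 2 lower, of which 8 were among the 10 above; Vcan (adjusted p = 0.0793) and Tm4sf1 (adjusted p = 0.0793) were not. Without the pericyte and smooth muscle limits 15 genes passed, 7 of them among the 10. The deviations of same-numbered libraries had a correlation of 0.0002 over 2 pairs, so the numbers were not shown to pair the libraries.

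The interaction count of 111 was 18 with DESeq2, 40 with the rule on thinned cells, 5 without endothelial-positive cells and 53 with only endothelial-positive cells poor in Gsn, which was also chosen after seeing the data. Leaving out 1 library gave 41 to 104 genes (41 without HFpEF library 2, 56 without NC library 1). The share of members, a mean of 0.773% over libraries, was 0.622% with stricter thresholds and 0.555% on thinned cells. Against pericyte-like cells 94 genes were counted as higher in the members, against 157 over the other cells.

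Signs turned in the members left after endothelial-positive cells were taken out, where the log2 fold change was 0.39 for Fabp5, 1.24 for Tm4sf1, 2.14 for Vwf and 1.63 for Npr3. The interaction there was -0.19 for the Ccl21a entry, 0.24 for Lyz2, 0.79 for Fabp5, 1.04 for Npr3 and 1.24 for Tm4sf1. On thinned cells it was -0.25 for the Ccl21a entry, -0.28 for Ccl7 and 8.04 for Lyz2, and without 1 library Lyz2 ranged from -6.48 to 0.29, the latter without NC library 2. The cause of these changes was not tested. NC library 1 held only 5 endothelial-negative cells, which limits every value given for them there.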
